A study of Oryctolagus cuniculus with 4 samples.

Results

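MGP and PTH1R, genes tied to the control of tissue calcification, were described in rabbit ligamentum flavum, a ligament rich in elastic fibres that spans the gap between vertebral arches and can calcify or ossify in disease. The members are all probes whose transcript accession belongs to rabbit MGP or PTH1R in RefSeq, which gave 9 probes for MGP and 1 for PTH1R, each gene from 1 transcript accession. They are 2 of 1489 genes that could be named on the array. Both genes were chosen by an earlier look at their ratios at the stressed and the fused levels in these data, so all values below are descriptions.

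The tissue came from male rabbits aged 34 weeks, and every sample is labelled as 16 weeks after surgery. Per the labels, surgery at 18 weeks of age removed muscle over L3/4 and fused the neighbouring levels, L2/3 and L4/5, from behind with implants. The 4 groups are L3/4 of the operated spine, called the intervertebral stress concentration (ISC) level, the fused levels, L2/3 and L4/5, and a control for each of these, the L3/4 control and the L2/3 and L4/5 control. No label gives the strain, or says whether RNA of several animals or levels was pooled. It is also not stated if control rabbits had an operation, so surgery and mechanical load cannot be told apart. One-colour Agilent arrays were used, 1 for each group, so nothing here has a replicate or a p-value, the spread from animal to animal is unknown, and precision is limited by the number of arrays.

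Matrix Gla protein, the product of MGP, is a small secreted protein that needs vitamin K-dependent carboxylation to bind calcium, and its loss in mice leads to calcified arteries and cartilage. PTH1R encodes a G protein-coupled receptor for parathyroid hormone and for the locally made parathyroid hormone-related protein, the product of PTHLH. In bone and growth cartilage that receptor, acting largely through cyclic AMP, controls bone turnover and delays the maturation of chondrocytes.

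Levels are given as log2 of the processed signal minus log2 of the array's 75th percentile, called scaled log2 signal, and ratios are differences of these values. A difference of at least 2-fold, 1 on the log2 scale, is used as a fixed size and not as a test. The error given with a ratio is the one that the scanner software attaches to the spot signals, carried over to the ratio. It covers the spot and not the animal. The array's 75th percentile was a signal of 93.7 at the ISC level, 85.4 at the fused levels, 53.4 in the L3/4 control and 72.7 in the L2/3 and L4/5 control. No spot was saturated on any array.

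MGP had its highest level at the ISC level and its lowest at the fused levels, with both controls close to each other in between. The brightest of its 9 probes, which represents the gene, had a processed signal of 29334 at the ISC level, against 10586 in the L3/4 control. The same probe had a signal of 6293 at the fused levels, against 13478 in the L2/3 and L4/5 control. On the scaled log2 scale it stood at 8.29 at the ISC level, 6.20 at the fused levels, 7.63 in the L3/4 control and 7.54 in the L2/3 and L4/5 control. The L3/4 control minus the other control was 0.10 (software error 0.20), but −0.50 with quantile normalization, −0.38 with cyclic loess and −0.16 with normexp. The operated levels lay on opposite sides of both controls.

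At the ISC level MGP was higher than in the L3/4 control by 0.66 on the log2 scale (software error 0.20), which is 1.58-fold and under the fixed size. All 9 probes were higher, by 0.66 to 0.93, with a mean of 0.80 and an SD over probes of 0.10, and 0 of the 9 reached 2-fold. The probes of a gene read the same RNA on the same arrays, so they are not replicates of a group. Their SD is not a spread between animals. In the same comparison 9.08% of 13729 measured features were higher and 10.5% lower by 2-fold or more, and the median of all features was −0.17. Features are the named genes plus the accessions and probes left unnamed, and they count as measured where the spot was well above background on both arrays. Against the L2/3 and L4/5 control, MGP at the ISC level was higher by 0.75, with probes from 0.75 to 1.02, 2 of them at 2-fold. In that comparison 3.54% of features were higher and 5.03% lower by 2-fold or more. Whether MGP reaches 2-fold at the ISC level depended on the normalization: the ratio to the L3/4 control was 1.17 with quantile normalization, 1.24 with cyclic loess and 1.05 with normexp background correction. Normexp was run with an offset of 50 added to every signal, beside array 75th percentiles of 53.4 to 93.7 without it.

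At the fused levels MGP was lower than in the matched control, with a ratio of −1.33 (software error 0.20), a 2.52-fold difference. All 9 probes were lower by 2-fold or more, with ratios from −1.57 to −1.32, a mean of −1.38 and an SD over probes of 0.08. Of 13717 features in this comparison, 9.15% were lower and 7.84% higher by that size. Against the L3/4 control the ratio was −1.43 and all 9 probes were again past 2-fold, from −1.76 to −1.31, where 13.0% of features were lower and 11.2% higher by that size. These comparisons share the array of the fused levels, so they are not independent of each other.

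Set directly against the fused levels, the ISC level had more MGP signal by 2.09, a 4.24-fold difference, with probes from 2.09 to 2.57. In that comparison 6.99% of 14564 features were higher and 7.76% lower by 2-fold or more.

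The 9 probes of MGP differed widely in signal, but in each of them the ISC level was highest and the fused levels lowest. The dimmest probe had a signal of 5100 at the ISC level, against 1649 in the L3/4 control, and of 781 at the fused levels, against 1970 in the L2/3 and L4/5 control. It had the lowest ratio of the 9 at the fused levels, −1.57, and a ratio of 0.82 at the ISC level. On every array each MGP spot lay far above its surroundings, at 26.1 to 994 times the local background. The order of the controls was the point on which the probes did not agree, with differences from −0.003 to 0.22, all within or near the software error of a spot ratio.

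**Figure D1:**
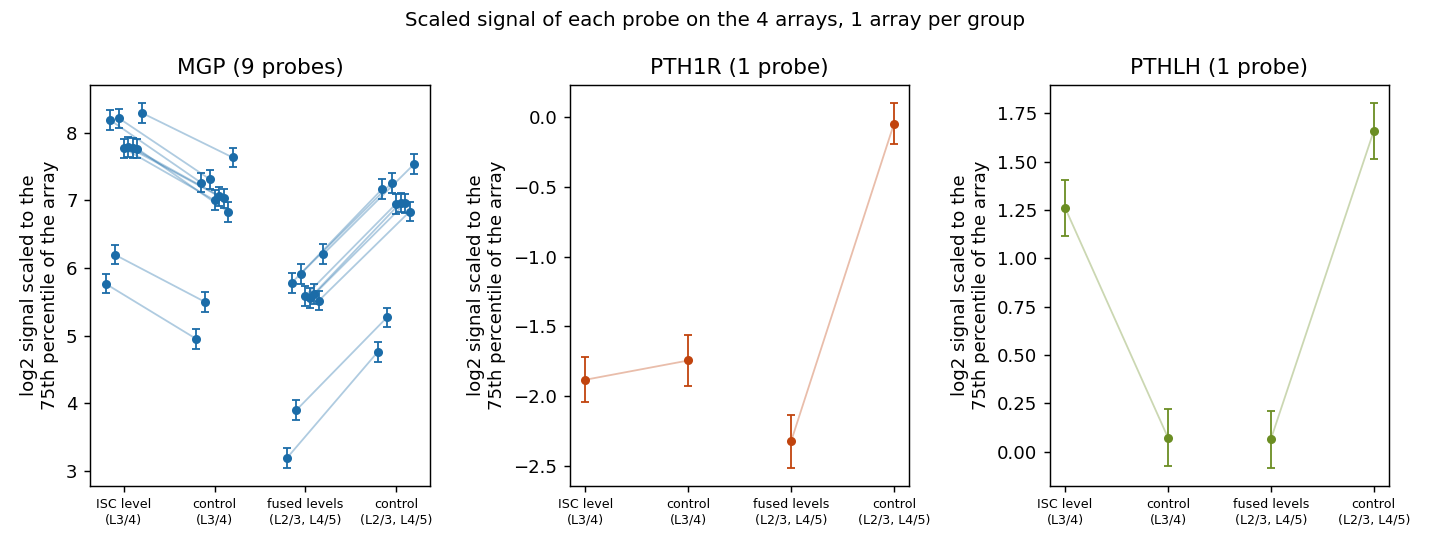
Scaled log2 signal (vertical axis) of the 9 MGP probes, the PTH1R probe and the probe of its ligand gene PTHLH on each of the 4 arrays, with the scanner software's error of the spot as bars and each operated level joined to the control of the same level. MGP lies below both controls at the fused levels and above them at the ISC level in all 9 probes, whereas PTH1R stands out on the L2/3 and L4/5 control, at −0.05.

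PTH1R showed another pattern, in which the L2/3 and L4/5 control stood apart from the remaining arrays. Its single probe had a processed signal of 25.4 at the ISC level, against 15.9 in the L3/4 control. It had 17.0 at the fused levels, against 70.3 in the L2/3 and L4/5 control. On the scaled log2 scale these are −1.88 at the ISC level, −2.33 at the fused levels, −1.75 in the L3/4 control and −0.05 in the L2/3 and L4/5 control. The spot was well above background on all 4 arrays but dim, at 1.65 to 3.72 times its local background, and the software error of the signal was 10.2% to 13.0%.

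At the fused levels PTH1R was lower than in the matched control, with a ratio of −2.28 (software error 0.24), a 4.85-fold difference. Against the L3/4 control the ratio of the fused levels was −0.58 (software error 0.26), under 2-fold. With normexp background correction the ratio to the matched control was −0.96, no longer at 2-fold. The offset of 50 added there is larger than the PTH1R signal of 17.0 at the fused levels. At the ISC level the ratio to the L3/4 control was −0.14, smaller than its software error of 0.24, while the ratio to the L2/3 and L4/5 control was −1.84. The L3/4 control itself was below the other control by −1.70 (software error 0.23), in a comparison in which 9.19% of 13137 features were lower and 8.39% higher by 2-fold or more. With normexp this difference was −0.59, under 2-fold. The ISC level and the fused levels differed by 0.44 (software error 0.25). The order of the 3 arrays below the top one thus rests on differences in 1 dim probe that are under 2-fold. Under the 4 other ways of scaling, the authors' included, the ratio of PTH1R at the fused levels lay between −2.30 and −2.21, and that of MGP between −1.53 and −1.29, so both kept 2-fold.

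**Figure D2:**
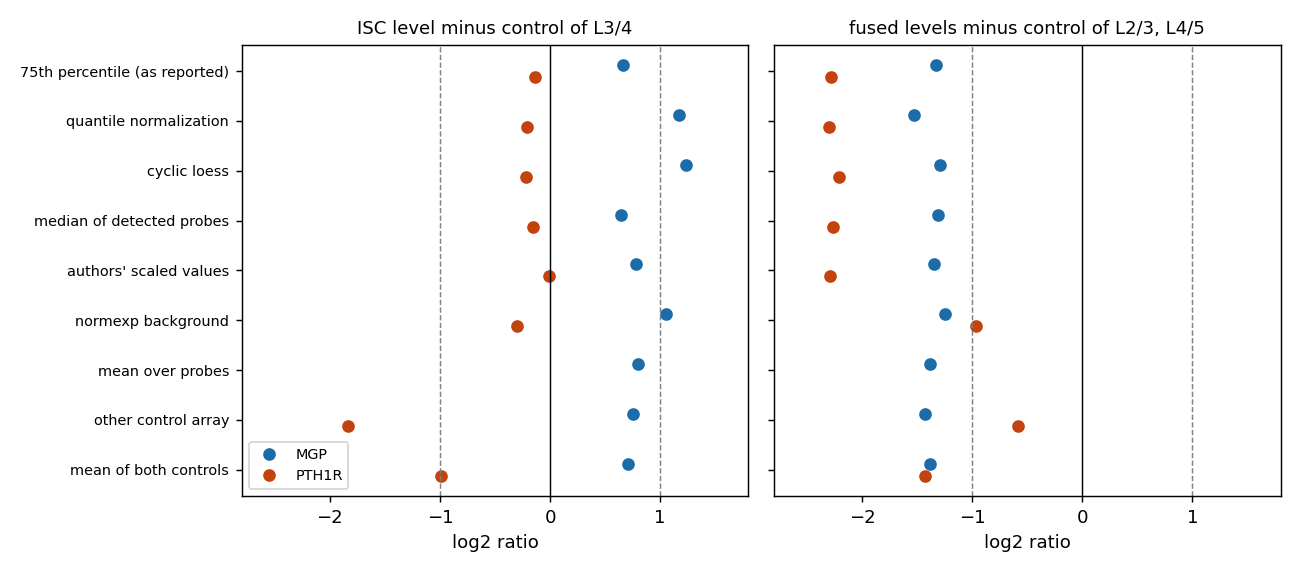
Log2 ratio (horizontal axis) of MGP and PTH1R at the ISC level and at the fused levels under each way of scaling, background correction, probe choice and control, with dashed lines at 2-fold. MGP keeps its sign in all of them and passes 2-fold at the ISC level in 3, and PTH1R at the fused levels ranges from −2.30 to −0.58.

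The L2/3 and L4/5 control also held far more signal of skeletal muscle genes than the remaining arrays. All 15 named genes of a skeletal muscle list were well above background there. The summed scaled signal of the list, in units of the array's 75th percentile, was 28.4 at the ISC level, 14.9 at the fused levels, 28.2 in the L3/4 control and 877 in the L2/3 and L4/5 control. The part of muscle RNA in the PTH1R signal was not tested. In bulk tissue, fewer cells of a type and less RNA per cell cannot be told apart.

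MGP differed by 0.10 between the controls, but by −0.50 with quantile normalization, −0.38 with cyclic loess and −0.16 with normexp. In that comparison 11 of 11 measured muscle genes were lower in the L3/4 control by 2-fold or more, beside 9.19% of all features. The part of muscle RNA in the MGP signal was not tested. The fused levels, where MGP was lowest, also held the most blood and marrow signal. Summed haemoglobin signal there was 1152, against 272 in the L2/3 and L4/5 control, and 434 at the ISC level, against 780 in the L3/4 control. The neutrophil and marrow list of 5 named genes summed to 283 at the fused levels, against 5.07 in their control, and to 6.46 at the ISC level, against 11.3 in the L3/4 control. The 4 named adipocyte genes summed to 20.0 at the fused levels, against 6.07 in their control. The part of these cells in the lower share of MGP at the fused levels was not tested. The named genes of tendon and ligament, 6 in all, were well above background on all arrays except TNMD, a marker of tendon and ligament cells, which did not clear the background at the fused levels. Their summed signal was 742 at the ISC level, against 627 in the L3/4 control, and 574 at the fused levels, against 716 in the L2/3 and L4/5 control. The sum rests mostly on the matrix genes COL1A2 and OGN, the brightest of the 6. Their scaled log2 signals were 8.79 and 7.72 at the ISC level and 7.80 and 8.27 at the fused levels. To the matched control at the fused levels they had opposite signs, −0.62 for COL1A2 and 0.18 for OGN.

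**Figure D3:**
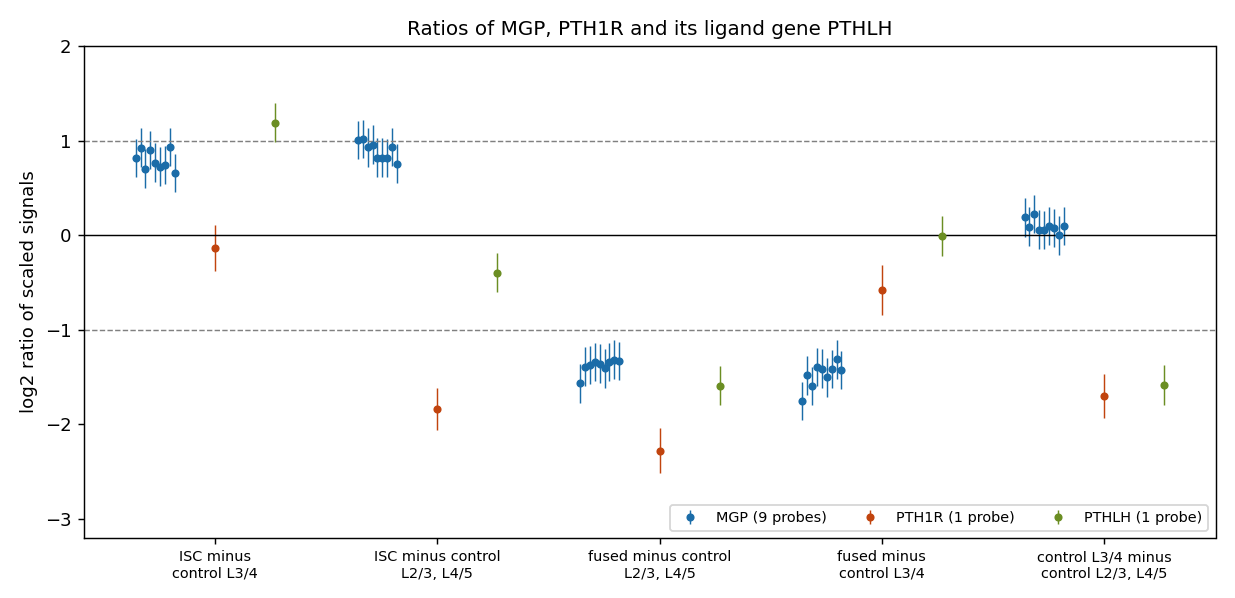
Log2 ratio of scaled signal (vertical axis) for each probe of MGP, PTH1R and PTHLH in the comparisons of the ISC level, the fused levels and the controls, with the scanner software's error as bars and dashed lines at 2-fold. MGP lies at 0.66 to 1.02 for the ISC level and at −1.76 to −1.31 for the fused levels with either control, while the ratios of PTH1R and PTHLH move with the choice of control.

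PTHLH, the gene of the local ligand of the receptor, differed between the arrays in still another order. Its single probe had a signal of 224.8 at the ISC level, against 56.2 in the L3/4 control, and of 89.3 at the fused levels, against 229.4 in the L2/3 and L4/5 control. The ratio was 1.19 at the ISC level and −1.59 at the fused levels to the matched controls. Against the other control the ratio was −0.40 at the ISC level and −0.01 at the fused levels, both under 2-fold. The L3/4 control was itself lower than the other control by −1.59, close to the −1.70 of PTH1R. The ligand gene and the receptor gene were thus both highest in the L2/3 and L4/5 control. The ISC level came next for PTHLH, at a scaled log2 signal of 1.26 beside 1.66, and the L3/4 control came next for PTH1R.

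A list of 46 genes of parathyroid hormone signalling had 9 that could be named, PTH1R itself and PTHLH among them. Of 7 measured at the ISC level 2 were higher and 2 lower than in the L3/4 control by 2-fold or more. Beside this, 9.08% of all features were higher and 10.5% lower. The list's median was −0.14, the ratio of PTH1R itself, beside −0.17 for all features. Of 6 measured at the fused levels 2 were higher and 2 lower by that size, beside 7.84% higher and 9.15% lower for all features. The 2 lower were PTH1R and PTHLH. The median was −0.28, beside −0.14 for all features. With the other control, 0 of 7 were higher and 1 lower by that size at the ISC level, beside 3.54% and 5.03% of all features. The 1 lower was PTH1R, at −1.84. At the fused levels 2 of 6 were then higher and 0 lower, beside 11.2% and 13.0%. NHERF2, a scaffold protein that binds the tail of the receptor, was at 1.61 at the ISC level and −0.54 at the fused levels to the matched controls. Both signs turned with the other control, to −0.73 at the ISC level and 1.8 at the fused levels. NHERF1, the related scaffold, was at −1.59 at the ISC level and 1.46 at the fused levels. Its 6 probes ranged from −1.60 to 0.07 in the first comparison and from 0.76 to 2.29 in the second, and with the other control it was under 2-fold, at −0.70 and 0.56 in the same order. PRKCB, a protein kinase C gene that is also high in blood cells, was at −2.58 at the ISC level and 3.52 at the fused levels, and its 6 probes ranged from −3.42 to −0.05 at the ISC level and from 1.95 to 4.36 at the fused levels. PRKCB was under 2-fold with the other control, at 0.49 at the ISC level and 0.45 at the fused levels. MEF2C, a transcription factor gene of muscle and cartilage, was at 0.70 at the ISC level and −0.03 at the fused levels, and with the other control at −0.67 and 1.35 in the same order. PRKCA, another protein kinase C gene, was at −0.36 at the ISC level. It was at least 2.11-fold lower in the fused sample, where its spot did not clear the background, but its other probe was at 2.86 at the ISC level and −0.06 at the fused levels. The adenylyl cyclase gene ADCY5 and the protein kinase A gene PRKACA were not well above background on any array in their brightest probes.

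Of the inhibitors of mineralization, 4 of 18 listed genes could be named and 3 were measured in both comparisons. ENPP1, whose enzyme makes the mineralization inhibitor pyrophosphate, was higher at the ISC level by 1.17 (2 probes, 1.02 and 1.17) and was at −0.61 at the fused levels. Its ratio to the other control was 0.49 at the ISC level and 0.07 at the fused levels. SPP1, the gene of osteopontin, a phosphoprotein that binds mineral, was at −0.31 at the ISC level and −0.63 at the fused levels. DKK1, a secreted Wnt antagonist, was not well above background on any array. The list's median was 0.66 at the ISC level, with 1 of 3 higher by 2-fold or more, beside −0.17 and 9.08% for all features. It was −0.63 at the fused levels, with 1 of 3 lower by that size, beside −0.14 and 9.15% for all features. MGP itself is among these 3. Its own ratio is the list's median of 0.66 at the ISC level, and MGP is the 1 lower at the fused levels. With the other control 0 of 3 were at 2-fold at the ISC level and 2 of 3 were lower by that size at the fused levels, MGP and SPP1, with SPP1 at −1.15, beside 13.0% of all features.

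Of the genes of mineralization and bone formation, 4 of 28 could be named, and all 4 were measured on every array. BMP2, a ligand that induces bone, was at −0.35 at the ISC level and −0.81 at the fused levels, with 8 probes from −1.54 to −0.12 in the first comparison and from −1.44 to −0.71 in the second. BMP4, a related ligand, was at −1.31 at the ISC level and 0.55 at the fused levels. TGFB2, a ligand of the TGF-beta receptors, was at 1.27 at the ISC level and −0.96 at the fused levels, and the type I collagen gene COL1A2 at 0.89 at the ISC level and −0.62 at the fused levels. The list's median was 0.27 at the ISC level, with 1 gene higher and 1 lower by 2-fold or more, beside −0.17, 9.08% and 10.5% for all features. The median was −0.71 at the fused levels, where 0 of 4 were at 2-fold, beside −0.14, 7.84% higher and 9.15% lower for all features. BMP4 was at −0.40 at the ISC level and −0.37 at the fused levels with the other control, TGFB2 at 0.22 and 0.09 in the same order, both under 2-fold and with the sign turned at the fused levels. With the other control 0 of 4 were at 2-fold at the ISC level, and 1 of 4 was lower by that size at the fused levels, BMP2 at −1.18, beside 13.0% of all features. The 5 matrix genes COL1A2, BGN, DCN, OGN and LUM of the tendon and ligament list, read beside MGP after their values were seen, did not share 1 direction. COL1A2 and BGN, the gene of the proteoglycan biglycan, had the signs of MGP, with BGN at 1.27 at the ISC level and −2.07 at the fused levels. The 2 probes of BGN were at 0.47 and 1.27 at the ISC level. With the other control BGN was at 0.15 at the ISC level and −0.95 at the fused levels, and COL1A2 at 0.37 and −0.10 in the same order. The proteoglycan genes DCN, at −0.23 at the ISC level and 0.07 at the fused levels, and OGN, at −0.60 and 0.18 in the same order, had the opposite signs. Both fused ratios, of the brightest probe, were smaller than their software error of 0.20. The DCN probes ran from −0.18 to 0.91 there, and the 5 OGN probes from 0.18 to 1.45. With the other control the fused ratio was 0.37 for DCN and −0.05 for OGN. LUM, the gene of lumican, was at −0.57 at the ISC level and −1.36 at the fused levels.

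Of the vitamin K-dependent proteins, 6 of 15 listed could be named, MGP among them. The coagulation factor genes F7 and F10 and the protein S gene PROS1 were well above background on all arrays, at −0.09 for F7, −0.57 for F10 and 0.42 for PROS1 at the ISC level and at 0.03 for F7, −0.34 for F10 and 0.09 for PROS1 at the fused levels. F9 was at −1.13 at the ISC level, with 3 probes from −3.09 to −1.13, and at −0.61 with the other control. Its spot did not clear the background in the fused sample, which was at least 1.66-fold lower than the matched control and at least 2.38-fold lower than the L3/4 control. PROC was not well above background on any array. The bone Gla protein gene and the carboxylase gene GGCX could not be named on the array and were not analysed here.

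Of 27 genes of calcium, phosphate and vitamin D handling, 9 could be named and 5 were measured in both comparisons. The median was −0.24 at the ISC level, with 0 of 5 at 2-fold, beside −0.17, 9.08% higher and 10.5% lower for all features. The median was −0.57 at the fused levels, and 1 of 5 was lower by 2-fold or more, CYP27A1, a sterol hydroxylase gene that can also hydroxylate vitamin D, at −1.28, beside a median of −0.14 and 9.15% lower for all features. CYP27A1 was at −1.04 at the ISC level and −0.49 at the fused levels with the other control, where SLC34A1, at −1.11, was the 1 of 5 past 2-fold at the fused levels, beside 13.0% of all features lower by that size. SLC8A1, the sodium-calcium exchanger gene, was at 0.86 at the ISC level and −0.57 at the fused levels, with 6 probes from −3.57 to 1.04 in the first comparison. The phosphate transporter gene SLC34A1 was at −0.57, the calcium channel gene TRPV5 at −0.66 and the calcium pump gene ATP2B1 at 0.04 at the ISC level. There the 3 probes of TRPV5 ran from −0.66 to 0.84 and the 3 of ATP2B1 from −0.76 to 0.98. SLC34A1 was at −0.96, TRPV5 at −0.41 and ATP2B1 at 0.05 at the fused levels. The calbindin gene CALB1 cleared the background in the L3/4 control alone, which makes the ISC level at least 5.68-fold lower. The calcitonin receptor gene CALCR was not well above background on any array.

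The 885 other named genes that were well above background on all 4 arrays were ranked by how closely their pattern followed that of each member. The measure was the root mean square difference over the 4 arrays of scaled log2 values centred on the gene's mean. For MGP the closest was EMP1, a membrane protein gene, at 0.19, followed by CYP39A1, an oxysterol hydroxylase gene, at 0.24 and JUN, a subunit of the transcription factor AP-1, at 0.29. EMP1 was at 0.15, CYP39A1 at 0.03 and JUN at 0.82 at the ISC level. Ratios at the fused levels were −1.43 for EMP1, −1.10 for CYP39A1 and −1.01 for JUN. All 3 were lower by 2-fold or more at the fused levels, beside 9.15% of all features. Because they were picked for likeness to MGP on these same arrays, the choice itself favours this. At the ISC level JUN was the nearest of the 3 to the 0.66 of MGP.

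For PTH1R the closest were PHKA1, the muscle form of a phosphorylase kinase subunit, at 0.24, ASB5, an ankyrin repeat gene, at 0.27, and PKM, pyruvate kinase of muscle and many other tissues, at 0.28. PHKA1 was at 0.16, ASB5 at −0.84 and PKM at −0.38 at the ISC level. Ratios at the fused levels were −2.88 for PHKA1, −2.30 for ASB5 and −1.53 for PKM. Each of the 3 was highest in the L2/3 and L4/5 control, as PTH1R was, which their choice by likeness on these arrays favours. With 4 arrays many genes can share an order, and likeness here is a description only.

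**Figure D4:**
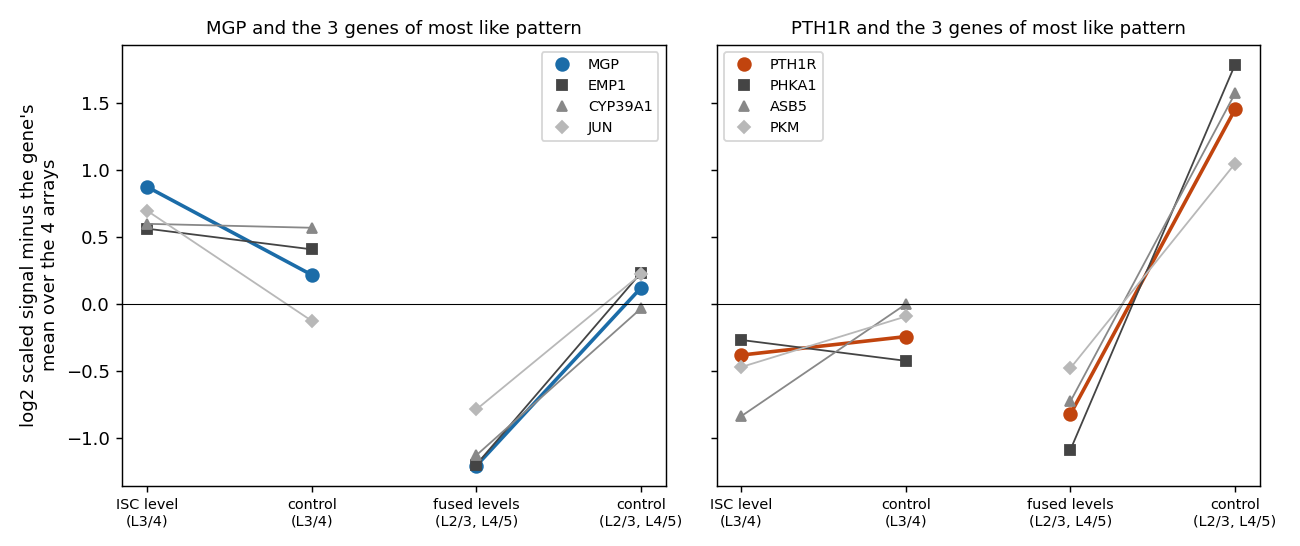
Scaled log2 signal minus the gene's mean over the 4 arrays (vertical axis) for MGP with EMP1, CYP39A1 and JUN, and for PTH1R with PHKA1, ASB5 and PKM. The genes beside each member were picked for likeness to it on these arrays. Those beside MGP are lowest at the fused levels, where MGP is at −1.21. Those beside PTH1R are highest in the L2/3 and L4/5 control, where PTH1R is at 1.45.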

How the data were processed

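Per the submitters' processing notes, spots were quantified in Agilent Feature Extraction 12.0.3. The deposited spot intensities are linear, background-subtracted and spatially detrended within an array, per the file headers, with no scaling between arrays. The authors' deposited value table equals these intensities times 1 factor per array, from 23.3 at the ISC level to 37.5 in the L3/4 control, so its scale and direction are known while the choice of factors is not given in the sources used here. Its columns had medians of 515.5 (ISC level), 498.3 (fused levels), 442.2 (control of L3/4) and 503.9 (the other control). The files' 0 or 1 marks per spot, deposited by the authors with other columns, gave background and outlier calls.

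Control spots and 3 to 7 outlier spots per array were left out, spots of a probe were averaged as log2 values, and log2 of the array's 75th percentile was subtracted. Between 59.6% and 67.9% of 43603 probes were well above background. Over 50 probes with several spots, the median SD of log2 signal was 0.12 to 0.15, a spread within arrays. RefSeq accessions without versions were named through NCBI's gene table for mOryCun1.1 (names only), which covered 3792 probes (8.70%). A gene is represented by its brightest probe. The members and the 15 gene lists were chosen with earlier results of these data known. Genes named are all members of the 5 calcification lists that were at 2-fold or at a list's extremes, and the 3 of most like pattern, the others being named after their values were seen. Every probe of MGP and PTH1R is counted. Counting past 2-fold was tested on simulated data. Alternatives used limma 3.58.1, with normexp (offset 50) on median spot signals. All 4 arrays lie on 1 slide.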

Additional observations from a re-analysis of the deposited data

Results flagged for a closer look

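The ratios to the matched controls at the ISC level and at the fused levels ran in opposite directions for MGP. MGP, chosen by these ratios, was flagged on sign and software error alone, other genes only at 2-fold on both sides. Beyond the software error but without that size, ENPP1, COL1A2, TGFB2, BMP4, NHERF2 and SLC8A1 of the 5 calcification lists ran in opposite directions too. In these lists the ratios did so at 2-fold or more on both sides for PTHLH, NHERF1 and PRKCB. Genes of the cell type lists did so too, among them BGN at 1.27 at the ISC level and −2.07 at the fused levels, PPARG at −2.00 and 2.63 in the same order, and MYL1 at 1.25 and −6.65. With the other control BGN was at 0.15 and −0.95, PPARG at 0.85 and −0.22, and MYL1 at −4.53 and −0.87, in the same order. The share of all features that ran in opposite directions was not counted. Whether the flagged genes differ from the rest of the array in this is therefore not known. The difference between the contrasts, ISC level minus fused levels, was 1.99 for MGP (0.66 at the ISC level and −1.33 at the fused levels), 2.78 for PTHLH (1.19 and −1.59, in the same order), −3.05 for NHERF1 (−1.59 and 1.46) and −6.10 for PRKCB (−2.58 and 3.52). Each rests on 1 array per group and the difference was not tested. For MGP all 9 probes and both choices of control gave these directions, by which MGP was chosen. The 9 probes read the same RNA on the same arrays and are not replicates, and both choices of control share the arrays of the operated levels. For PTHLH the ISC ratio changed sign with the other control, to −0.40. With the other control PTHLH was at −0.01 at the fused levels, NHERF1 at −0.70 at the ISC level and 0.56 at the fused levels, and PRKCB at 0.49 at the ISC level and 0.45 at the fused levels, so none of the 3 was at 2-fold on either side. A probe of NHERF1 was at 0.07 at the ISC level to the matched control.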

How the results depend on the processing

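No paired analysis was possible because each group has 1 array, and for the same reason no array could be left out. Of 36 alternative values for MGP 27 moved by less than the software error of the spot ratio, and of 24 for PTH1R 17 did. Some of those for MGP could not move. The lowest probe is the reported probe itself for the ISC level against the L3/4 control and against the fused levels. At the ISC level MGP moved to 1.17 with quantile normalization, 1.24 with cyclic loess, 1.05 with normexp and 0.93 with its highest probe. Its fused ratio moved to −1.57 with the lowest probe, the ISC level minus the fused levels to 2.57 with the highest, and the L3/4 control minus the other control to −0.50 with quantile normalization, −0.38 with cyclic loess and −0.16 with normexp, against 0.10 as reported. PTH1R at the ISC level moved to −1.84 with the other control and −0.99 with the mean of both. At the fused levels it moved to −0.58 with the other control, −1.43 with the mean of both and −0.96 with normexp. With normexp the ISC level minus the fused levels was 0.074 and the controls differed by −0.59. The PTH1R spot is dim, at 1.65 to 3.72 times its local background. Normexp added an offset of 50 to every signal, beside processed PTH1R signals of 15.9 to 70.3. Such a constant makes up a larger share of a dim signal than of a bright one. The cause of these moves was not tested.

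Features past 2-fold numbered 2687 (ISC level to its control), 2330 (fused levels to theirs), 2148 (ISC level to fused levels) and 2309 (control to control). In that order the counts were 527, 706, 705 and 421 with normexp and its added offset of 50. They were 4656, 4033, 3592 and 4217 when a detected spot on 1 array was enough, and 5897, 5169, 4648 and 5559 with no filter. The share of calls that were higher at the ISC level was 46.4%, and 58.9% with the authors' scaled values, which set the median of all features at −0.04 in place of −0.17. With normexp that share was 66.2% at the ISC level, 62.2% at the fused levels against 46.1% as reported, 36.2% for the ISC level to the fused levels against 47.4%, and 33.7% for control to control against 47.7%. Relative to the median of all features MGP was at 0.82 at the ISC level and −1.20 at the fused levels, and PTH1R at 0.03 and −2.14.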
